A study of Mus musculus with 9 samples.

Results

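Among the 15593 gene symbols of the table, 9 enzymes and inhibitors that crosslink or cut the extracellular matrix were followed: the lysyl oxidases Lox, Loxl1 and Loxl2, the matrix metalloproteinases Mmp2, Mmp3 and Mmp14, and the tissue inhibitors Timp1, Timp2 and Timp3. They were picked by symbol. A row was listed for 8 of the 9, and Mmp3 (chromosome 9, 7445822 to 7455975, GRCm38.p6) had none, so its level was not analysed here. Polyadenylated RNA of mouse gastrocnemius, a calf muscle, was sequenced on an Ion Torrent Proton in 3 groups of 3 libraries. One group was wildtype and received vehicle, the others were mdx and received either vehicle or the compound GTx-026, injected subcutaneously at 10 mg/kg. All 9 libraries carry the strain label C57BL/6, and age, sex and length of treatment are not given in the sources used here. Mdx mice lack functional dystrophin through a mutation of Dmd and are used to model Duchenne muscular dystrophy. GTx-026 was tested in a study of androgen receptor agonists. Each group is labelled as 3 mice, without stating which mouse gave which library, and the p-values therefore rest on variation among libraries only. A library's number is a name only and pairs it with no library of another group.

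Lysyl oxidases are secreted copper enzymes that oxidise lysines of collagen and elastin, after which the fibres become covalently crosslinked. Matrix metalloproteinases are zinc enzymes made as inactive precursors; Mmp14 sits in the plasma membrane and, together with Timp2, activates pro-Mmp2, a gelatinase. The tissue inhibitors block active metalloproteinases: Timp1 is secreted and inducible, Timp2 takes part in activation as well as inhibition, and Timp3 is bound to the matrix and also blocks some ADAM proteases. In dystrophic muscle, fibres die and regenerate while connective tissue accumulates between them, and fibroblast-like cells and macrophages make much of this machinery.

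The bases upstream of 2 of these genes are shown because Timp1 was, of the 8 listed genes, the 1 at 0 throughout wildtype and above 0 throughout mdx muscle, and Mmp14, the membrane protease, had the lowest p of the 7 tested genes in mdx vehicle against wildtype. Both are the 250 bases before the RefSeq start site on GRCm38.p6, 5′ to 3′ on the gene's strand, at chrX:20869916-20870165 (plus strand) for Timp1 and chr14:54431348-54431597 (plus strand) for Mmp14. Capitals mark a GC box (GGGCGG on either strand, the core sequence that Sp family factors recognise).
Timp1: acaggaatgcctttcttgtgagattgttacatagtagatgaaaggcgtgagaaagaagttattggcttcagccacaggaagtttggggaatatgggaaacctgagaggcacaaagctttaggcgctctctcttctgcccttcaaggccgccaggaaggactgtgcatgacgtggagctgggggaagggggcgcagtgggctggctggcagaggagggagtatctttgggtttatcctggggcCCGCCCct
Mmp14: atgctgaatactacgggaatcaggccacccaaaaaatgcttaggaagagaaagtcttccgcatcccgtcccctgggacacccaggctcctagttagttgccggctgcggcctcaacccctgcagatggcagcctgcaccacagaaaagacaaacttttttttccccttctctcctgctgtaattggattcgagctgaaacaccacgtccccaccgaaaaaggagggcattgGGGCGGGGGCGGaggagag
The Mmp14 window held 2 GC boxes, which overlap by no base and begin 19 and 13 bases before the start, and the Timp1 window held 1 on the opposite strand at 8 bases. The windows searched ran on to 50 bases after the start, and 35.7% of all 32851 such windows of 300 bases held a GC box. The Timp2 window held 1 and the Timp3 window 2, of which 1 lies 13 bases after the start. The AP-1 motif TGANTCA, present in 7.81% of all windows, and the letters TATAAA, present in 13.6%, were found in Mmp3 and in neither Timp1, Timp2, Timp3 nor Mmp14. RefSeq windows are reported here for 5 of the 9 genes, and the motif matches are letters in a window, not measured binding sites.

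The reads listed for a library, summed over records, were estimated at between 25.1 M and 38.0 M. A read counted in several records is counted again there, so these are not library depths. Values are CPM, counts per M (mega) of the library's signal summed over records, after rescaling between libraries. All 9 markers of fast and general muscle fibre were listed. Their summed level was 167989 to 213954 CPM in wildtype vehicle, 116487 to 158745 in mdx vehicle and 124733 to 205693 in mdx GTx-026. In mdx vehicle against wildtype vehicle, 8 of the 9 had a log2 difference below 0 (median −0.57). None of the 9 had an adjusted p under 0.05 there (limma). Dmd lay at 50.8 ± 9.30 CPM in wildtype vehicle, 18.3 ± 5.97 in mdx vehicle and 16.6 ± 2.07 under GTx-026 (SD, n = 3); since the mutation is a premature stop, transcript levels check the labels only indirectly. One library, mdx vehicle library 1, stood apart: its median correlation with the rest of its group, over genes as the points and so with no independent replicates behind it, was 0.945, against 0.959 to 0.983 in the other 8. Of 15372 tested genes, limma called 52 in mdx vehicle against wildtype vehicle, 29 of them higher (55.8%, and 73.7% of 38 calls with the deposited scaling). It called 2 in mdx GTx-026 against mdx vehicle, and 227 in mdx GTx-026 against wildtype vehicle, 161 of them higher (70.9%, and 81.3% of 230 calls with the deposited scaling). That scaling also moved the median log2 difference of all genes to 0.16 in the first comparison and to 0.10 in the third.

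Per kilobase of the longest coding transcript, the inhibitors Timp2 and Timp3 were the most abundant of these genes in wildtype muscle, at 23.3 ± 3.44 and 23.2 ± 3.74 CPM per kb (SD, n = 3). Mmp2 followed at 12.2 ± 4.63 CPM per kb. Loxl1, Loxl2 and Mmp14 lay together at 3.15 ± 0.271, 3.10 ± 0.413 and 3.08 ± 0.894 CPM per kb, and Lox was lowest at 0.828 ± 0.2504. Timp2 and Timp3 did not differ beyond their SD, nor did the 3 genes near 3 CPM per kb. In mdx GTx-026 muscle the order was Timp2 at 43.8 ± 10.6, Mmp2 at 31.8 ± 11.5, Timp3 at 20.5 ± 2.28, Mmp14 at 7.23 ± 0.848, Loxl1 at 6.55 ± 1.67, Timp1 at 4.66 ± 0.911, Loxl2 at 4.56 ± 1.06 and Lox at 2.86 ± 1.54 CPM per kb. In that group the step from Timp3 to Mmp14 was the only one between neighbours larger than their summed SDs. Mdx vehicle means stood between those of the other groups for 7 of the 8 listed genes, with Timp2 at 33.3 ± 11.8 and Lox at 1.99 ± 0.736 CPM per kb, while Timp3 was at its lowest there, at 16.6 ± 4.37. Lox, Loxl2 and Mmp2 are sums of 3, 5 and 2 sequence records, and reads that the authors counted in more than one record are counted again in such a sum.

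Among the crosslinking enzymes, Lox (chromosome 18, 52516067 to 52529867, minus strand), the founding lysyl oxidase, was at 2.598, 4.89 and 4.29 CPM in the wildtype vehicle libraries 1 to 3. It was at 9.95, 5.72 and 12.6 CPM in mdx vehicle and at 9.86, 8.83 and 22.0 CPM in mdx GTx-026. Every mdx library lay above every wildtype library, and the 2 mdx groups overlapped, with a single GTx-026 library far above the others. The 3 Lox records each had a higher mean in mdx vehicle, by ratios of 1.98, 2.56 and 2.83 over wildtype.

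Loxl1 (chromosome 9, 58287738 to 58313186, minus strand), the family member tied to elastic fibres, was at 9.46, 11.2 and 10.4 CPM in wildtype vehicle, 10.5, 14.9 and 20.8 in mdx vehicle, and 23.6, 15.4 and 25.8 in mdx GTx-026. The wildtype libraries were close together, mdx vehicle reached down into their range, and all GTx-026 libraries lay above wildtype. Loxl2 (chromosome 14, 69609068 to 69695834, plus strand), a lysyl oxidase of the subgroup with scavenger receptor domains, was at 13.9, 17.7 and 17.8 CPM in wildtype vehicle, 17.1, 14.4 and 27.9 in mdx vehicle, and 26.8, 17.8 and 28.1 in mdx GTx-026. Here the second GTx-026 library almost met the highest wildtype library. Loxl2 shares 42.9% of its 50-base words with Gm21451, which has no row, and 301 exon bases with the antisense Gm27177, so its reads are uncertain.

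Of the proteases, Mmp2 (chromosome 8, 92827291 to 92853420, plus strand), gelatinase A, was at 22.3, 50.5 and 39.9 CPM in wildtype vehicle. It was at 41.4, 48.5 and 112 CPM in mdx vehicle and at 116, 57.1 and 121 CPM in mdx GTx-026. The mdx vehicle libraries 1 and 2 lay within the wildtype range, and mdx vehicle library 3 lay with GTx-026 libraries 1 and 3. Mmp14 (chromosome 14, 54431612 to 54445364, plus strand), the membrane-type protease that activates pro-Mmp2, was at 13.1, 9.29 and 7.46 CPM in wildtype vehicle, 17.7, 12.4 and 29.6 in mdx vehicle, and 24.5, 20.3 and 25.4 in mdx GTx-026. Only mdx vehicle library 2 fell below the highest wildtype library, and the GTx-026 libraries were close to each other.

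Of the inhibitors, Timp1 (chromosome X, 20870166 to 20874735, plus strand) was listed at 0 in all 3 wildtype libraries. It was at 2.30, 1.56 and 4.28 CPM in mdx vehicle and at 3.19, 4.65 and 4.50 CPM in mdx GTx-026. The smallest values listed above 0 in the wildtype libraries corresponded to 0.416 to 0.478 CPM, and no record was at 0 in only 1 or 2 libraries of a group. A listed 0 may therefore be a low value, and no fold change against wildtype is given. In the authors' deposited table the unadjusted p-value of Timp1 was 0.066 for wildtype with mdx vehicle, 0.0257 for wildtype with mdx GTx-026 and 0.259 between the mdx groups. The 2 p-values with wildtype rest on the values listed at 0, so they have the same limit as a fold change. In a model of the 2 mdx groups alone, Timp1 differed by 0.51 on the log2(CPM + 1) scale (limma, SE 0.28, 95% interval −0.14 to 1.16, adjusted p = 0.999).

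Timp2 (chromosome 11, 118301069 to 118355740, minus strand) was at 76.9, 101 and 81.7 CPM in wildtype vehicle, 115, 84.7 and 171 in mdx vehicle, and 172, 119 and 197 in mdx GTx-026. All GTx-026 libraries lay above wildtype, and mdx vehicle library 2 lay inside the wildtype range. Timp3 (chromosome 10, 86300372 to 86349506, plus strand) was at 96.3, 103 and 130 CPM in wildtype vehicle, 63.8, 69.8 and 102 in mdx vehicle, and 91.5, 89.7 and 109 in mdx GTx-026. It was the only one of the 7 tested genes with a lower mean in both mdx groups than in wildtype. Timp3 shares 1733 exon bases with Syn3 on the other strand, and the use of strand is not given in the sources used here; Syn3 lay at 1.61 ± 0.329, 1.61 ± 0.376 and 1.17 ± 0.273 CPM in the 3 groups (SD, n = 3).

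**Figure D1:**
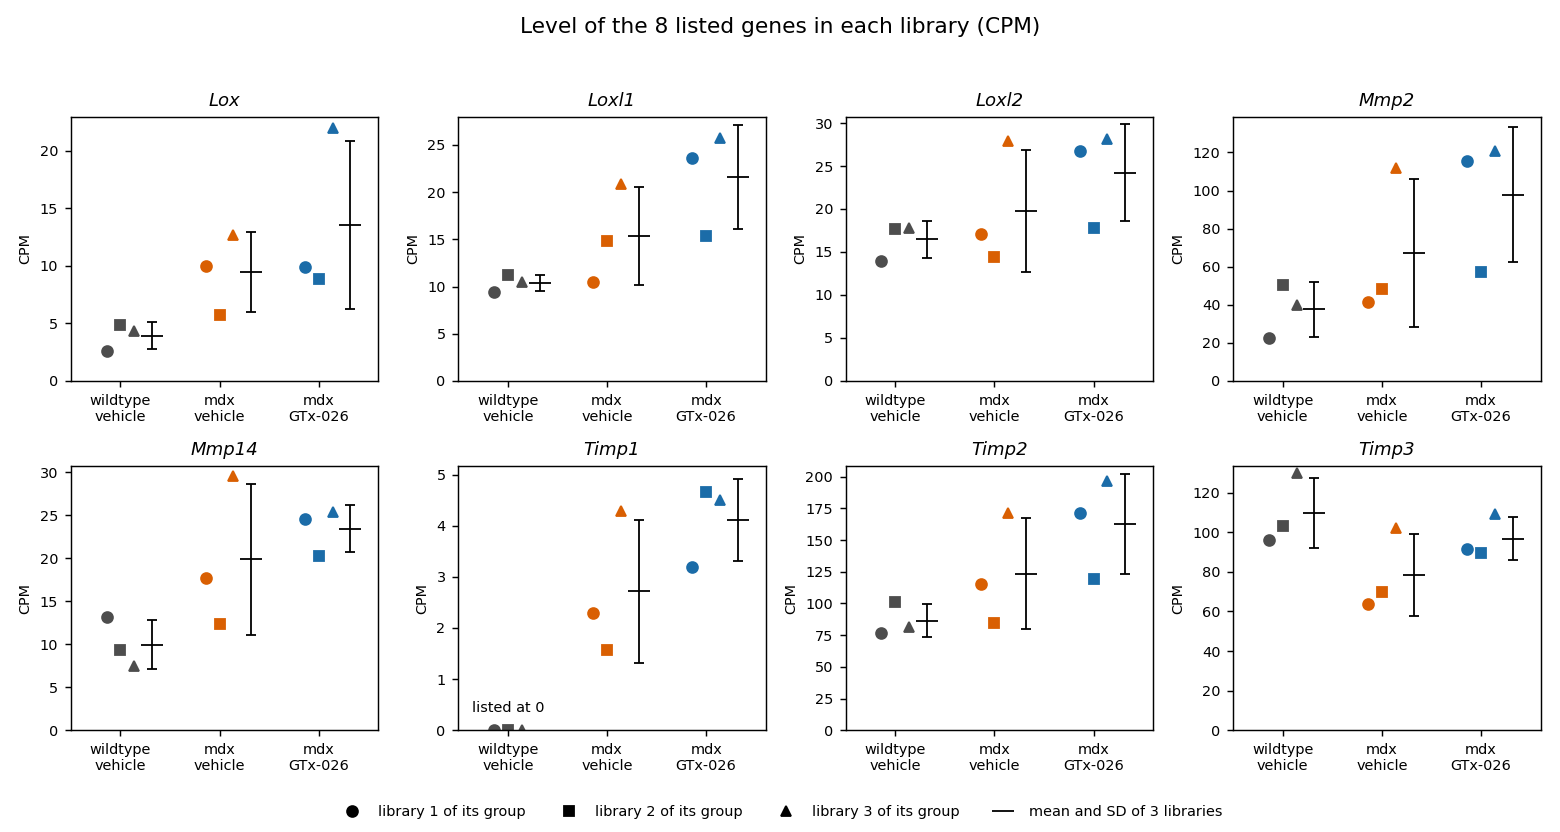
CPM (y axes, from 0) of each listed gene in each library, by group; marker shape gives the library's number, and bars give mean and SD of 3 libraries. All Lox values of mdx libraries lie above wildtype, mdx vehicle library 3 and GTx-026 library 3 are among the 3 highest libraries for 6 and 7 of the 7 tested genes, Timp3 has its highest mean in wildtype, and Timp1 is listed at 0 in wildtype.

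Between mutant and wildtype muscle under vehicle, 6 of the 7 tested genes had higher means in mdx and Timp3 a lower one, where 51.1% of all genes lay above 0. None of the 7 passed the threshold of an adjusted p of 0.05, which 0.338% of all tested genes passed. Lox showed the largest difference, 2.08-fold on the CPM + 1 scale (log2 1.05, SE 0.37, limma, Benjamini-Hochberg adjusted p = 0.301). Mmp14 was at 1.84-fold (log2 0.88, SE 0.29, adjusted p = 0.284), Mmp2 at 1.69-fold (0.76, SE 0.43, adjusted p = 0.496), and Timp3 at a log2 difference of −0.50 (SE 0.20, adjusted p = 0.354). Loxl1, Timp2 and Loxl2 lay at 0.48, 0.46 and 0.21. Without adjustment, 3 of the 7 had p under 0.05 (0.0178 for Lox, 0.0146 for Mmp14 and 0.0307 for Timp3, by limma), as did 12.7% of all tested genes. The groups did not overlap for Lox alone, and for 7.96% of all genes in that direction. The median over the 7 was 0.48, and 0.01 over all genes; with a library left out it ran from 0.25 without mdx vehicle library 3, when Loxl2 turned to −0.06, to 0.71 without mdx vehicle library 1. Without mdx vehicle library 3, Mmp2 was at 0.32, Loxl1 at 0.25 and Timp2 at 0.20; Mmp14 ran from 0.56 without that library to 1.16 without library 2. The record with the highest mean alone gave Lox a difference of 0.63.

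Between GTx-026 and vehicle in mdx muscle, all 7 tested genes had higher means under GTx-026, where 51.1% of all genes lay above 0. None of the 7 passed the threshold, which 0.013% of all genes passed. Mmp2 differed most, by 1.52-fold (log2 0.60, SE 0.43, 95% interval −0.37 to 1.58). Loxl1 followed at 0.48 (−0.09 to 1.05), Lox at 0.43 (−0.40 to 1.26), Timp2 at 0.42 (−0.18 to 1.02), Timp3 at 0.32 (−0.12 to 0.76), Loxl2 at 0.31 (−0.26 to 0.88) and Mmp14 at 0.30 (−0.36 to 0.97). Each had an adjusted p of 0.9996 (limma), none had an unadjusted p under 0.05, as 3.17% of all genes did, and the groups overlapped for all 7, while they did not for 6.79% of all genes. All 7 intervals included 0. The median over the 7 was 0.42, and 0.0049 over all genes. Without mdx vehicle library 3, the GTx-026 libraries lay above the remaining 2 for all tested genes but Lox, against 10.2% of all genes in that setting, and the median over the 7 moved to 0.65. It was 0.63 without GTx-026 library 2, 0.26 without mdx vehicle library 1, 0.24 without GTx-026 library 3 and 0.18 without mdx vehicle library 2. Single genes moved further: Lox was at 0.05 without GTx-026 library 3 and at 0.66 without GTx-026 library 2, and Mmp14 was at 0.03 without mdx vehicle library 2 and at 0.62 without library 3. Mmp2 ran from 0.32 to 1.03, Loxl1 from 0.24 to 0.71, Timp2 from 0.18 to 0.68, Timp3 from 0.18 to 0.52 and Loxl2 from 0.12 to 0.57 over the 17 alternative settings. None passed the threshold in any of them (lowest adjusted p = 0.825, limma).

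In mdx GTx-026 against wildtype vehicle, which shares its libraries with both other comparisons, 6 of the 7 tested genes were higher in every GTx-026 library than in every wildtype library, as were 11.5% of all genes, and 50.3% of all genes had a log2 difference above 0. None of the 7 passed the threshold, which 1.48% of all genes passed; 5 had an unadjusted p under 0.05 by limma, as did 12.5% of all genes. Lox stood at 2.80-fold (log2 1.48, SE 0.37, adjusted p = 0.0989), Mmp2 at 2.56-fold (1.36, SE 0.43, adjusted p = 0.207), Mmp14 at 2.27-fold (1.18, SE 0.29, adjusted p = 0.0998), Loxl1 at 1.95-fold (0.96, SE 0.26, adjusted p = 0.121) and Timp2 at 1.84-fold (0.88, SE 0.27, adjusted p = 0.178). Loxl2, whose lowest GTx-026 library was at 17.789 CPM and highest wildtype library at 17.785 CPM, stood at 0.51. Timp3 stood at −0.17. The median over the 7 was 0.96, and 0.00 over all genes. Mmp14 passed in 2 of 17 alternative settings, in a model of the 2 groups alone (adjusted p = 0.0289) and without mdx vehicle library 3 (adjusted p = 0.0416), and its adjusted p ran up to 0.333 in the others. In the authors' deposited table the unadjusted p-value of Mmp14 for this pair was 0.00656.

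**Figure D2:**
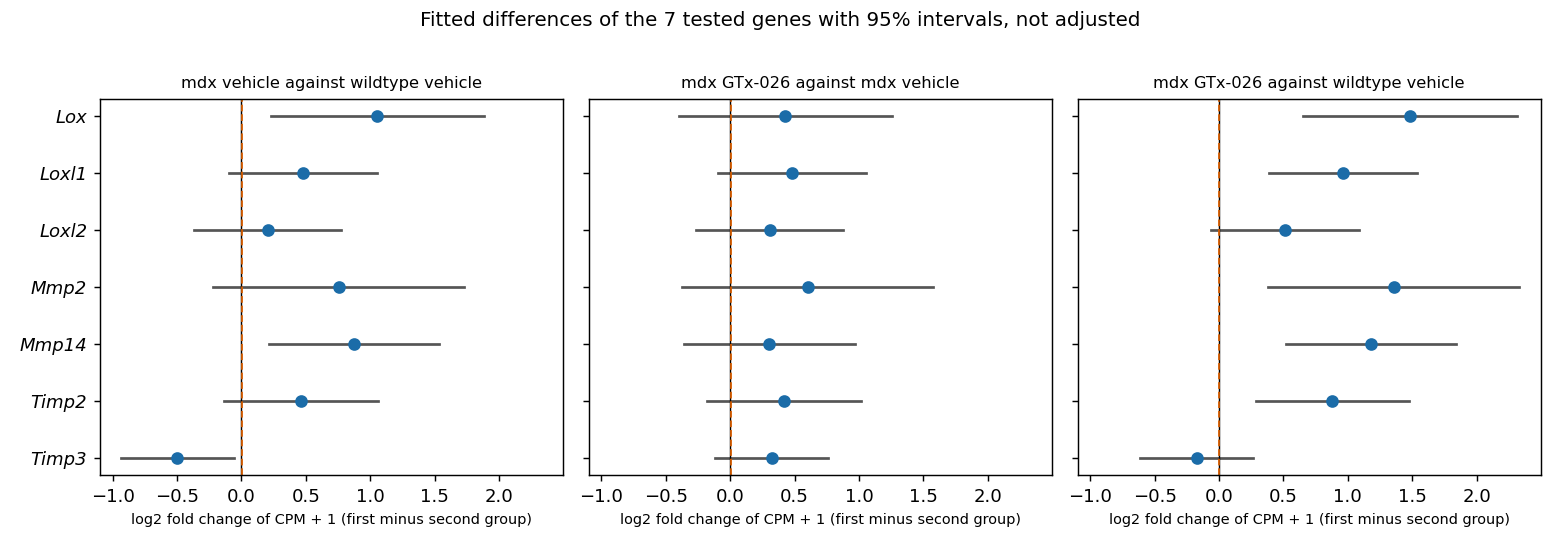
Fitted log2 fold change of CPM + 1 (x axis) with its unadjusted 95% interval for each tested gene (rows) in 3 comparisons (panels), from a model of all 9 libraries; the dashed line is the median of all tested genes. Every gene but Timp3 lies right of 0 in all panels, all intervals cross 0 in the middle panel, and the points of the right panel lie farthest from 0 for Lox, Mmp2 and Mmp14.

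The ratio of the 2 abundant inhibitors separated the wildtype from the mdx libraries. Timp3 over Timp2 CPM was 1.25, 1.02 and 1.59 in the wildtype libraries, 0.555, 0.823 and 0.597 in mdx vehicle, and 0.533, 0.751 and 0.555 in mdx GTx-026. All wildtype libraries thus had more Timp3 than Timp2 reads and all 6 mdx libraries had fewer, while the 2 mdx groups overlapped. The ratio was chosen after the CPM values were seen, so it carries no test. The ratio of Mmp2 to Timp2 was 0.426 ± 0.118, 0.528 ± 0.151 and 0.589 ± 0.1004 in the same order of groups (SD, n = 3), and that of Mmp14 to Timp2 was 0.118 ± 0.0457, 0.157 ± 0.0139 and 0.147 ± 0.0206; both overlapped. A ratio within a library shows unequal change, not which gene changed.

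**Figure D3:**
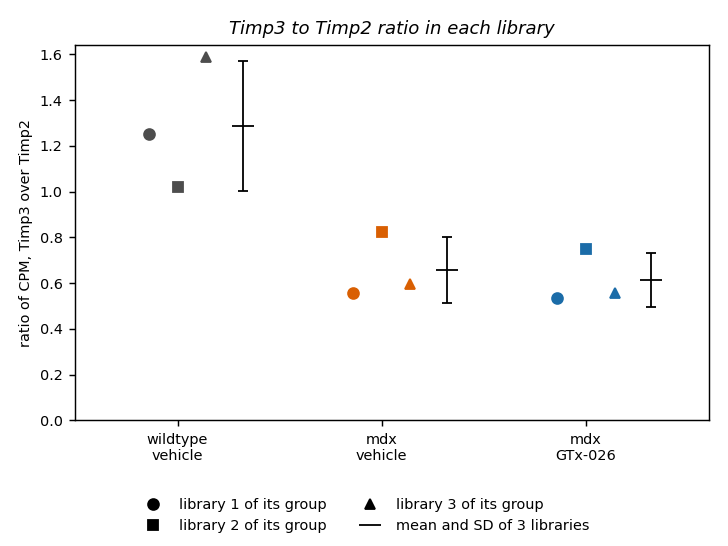
Ratio of Timp3 to Timp2 CPM (y axis, from 0) in each library by group; marker shape gives the library's number, bars give mean and SD of 3 libraries. The wildtype libraries lie between 1.02 and 1.59 and the 6 mdx libraries between 0.533 and 0.823.

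The levels varied together by library as well as by group. GTx-026 library 3 was the highest of the 9 libraries for 5 of the 7 tested genes, mdx vehicle library 3 was among the top 3 for 6, and wildtype vehicle library 1 was the lowest for 5. As a median log2 difference from the wildtype mean, the 7 genes of mdx vehicle libraries 1 to 3 lay at 0.21, 0.32 and 0.99, and those of the GTx-026 libraries at 1.12, 0.53 and 1.24. The 12 collagens and elastin that these enzymes act on lay at 0.05, 0.16 and 1.29 in mdx vehicle and at 1.18, 0.57 and 1.26 in GTx-026, the same libraries being high. Col3a1, the chain of type III collagen, was at 160 ± 23.8, 345 ± 220 and 537 ± 168 CPM in the 3 groups, Col1a2 at 142 ± 55.7, 253 ± 174 and 354 ± 98.6, and Col1a1 at 85.4 ± 29.95, 156 ± 121 and 193 ± 57.6 (SD, n = 3); Col4a2, of basement membranes, ran from 79.3 to 177 CPM over the libraries. Of these 12 genes, 11 had a log2 difference above 0 in mdx vehicle against wildtype (median 0.52), and all 12 did in GTx-026 against mdx vehicle (0.52) and against wildtype (0.97), with none past the threshold. The ratio of Lox to Col1a1 CPM was 0.0469 ± 0.00611, 0.0763 ± 0.0413 and 0.0678 ± 0.0178 in the 3 groups; all GTx-026 libraries (0.0520 to 0.0871) lay above all wildtype libraries (0.0399 to 0.0506), and mdx vehicle overlapped both. Loxl2 over Col1a1 went the other way, at 0.206 ± 0.0571, 0.155 ± 0.0580 and 0.127 ± 0.0149, with all GTx-026 libraries (0.112 to 0.141) below all wildtype libraries (0.165 to 0.271). Loxl1 over Col1a1 was 0.132 ± 0.0459, 0.122 ± 0.0481 and 0.113 ± 0.0112, and all groups overlapped (SD, n = 3). These ratios carry no test, and how often ratios of other genes separate the groups was not computed. The Loxl2 reads are uncertain, as given above.

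Markers of other cell types also differed between the libraries. The 10 markers of fibro-adipogenic progenitors, the matrix-producing mesenchymal cells of muscle, summed to 1151 to 1357 CPM in wildtype, 1013 to 1998 in mdx vehicle and 1830 to 2584 in mdx GTx-026. Within these sums, Gsn alone was at 561 to 712, 364 to 1043 and 1058 to 1593 CPM. The median difference of the 10 markers was 0.43, 0.42 and 0.70 in the 3 comparisons. Of the 10, 3 lay below 0 in mdx vehicle against wildtype and 2 in GTx-026 against mdx vehicle. All 10 lay above 0 in GTx-026 against wildtype, and 7 were higher there without overlap, as were 11.5% of all genes. Pdgfra alone was called in that comparison (adjusted p = 0.0311, limma), as were 1.48% of all genes. The 13 listed of 15 macrophage markers summed to 60.2 to 157 CPM in wildtype, 163 to 1147 in mdx vehicle and 439 to 698 in mdx GTx-026, with medians of 1.45, 0.42 and 1.94. In mdx vehicle, the sum was highest in library 1, with Gpnmb alone at 422 CPM, and lowest in library 2. Against wildtype, all 13 lay above 0 in mdx vehicle and in GTx-026. Lgals3 was called higher in both (adjusted p = 0.0336 and 0.0162, limma) and C1qc in GTx-026 (0.0464). In mdx vehicle 0.338% of all genes were called. The 2 without a row are both symbols of the macrophage receptor F4/80. The 6 tendon markers summed to 40.7 to 237, 117 to 466 and 162 to 354 CPM, lowest in wildtype library 1 and highest in the third library of each mdx group, and none passed. The 7 listed of 8 smooth muscle and pericyte markers summed to 165 to 265, 142 to 369 and 220 to 324 CPM. Their medians were −0.18, 0.42 and 0.23, all 7 lay above 0 in GTx-026 against mdx vehicle, and by library their median was highest in mdx vehicle library 3 (0.56) and GTx-026 library 3 (0.67). The 10 endothelial markers had medians of −0.41, 0.14 and −0.27. The 5 listed of 6 satellite cell markers, of muscle stem cells, summed to 47.9 to 51.5, 56.0 to 75.6 and 64.4 to 77.6 CPM. Within these sums, Myod1 alone was at 12.8 to 23.6, 20.7 to 37.8 and 35.6 to 43.3 CPM. The medians of the 5 were 0.18, 0.0076 and 0.31, and 2 of the 5 lay below 0 in each comparison. The 5 listed of 7 adipocyte markers differed mainly between libraries of a group, at 110 to 1753, 108 to 852 and 219 to 965 CPM, and so did the 8 slow fibre markers, from 278 CPM in mdx vehicle library 1 to 13557 CPM in GTx-026 library 3. No gene of these 5 lists passed the threshold. None of 6 neutrophil markers and 1 of 7 lymphoid markers had a row. The part of any cell type in the enzyme levels was not tested, and in these bulk samples more cells of a type and more RNA per cell cannot be told apart.

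**Figure D4:**
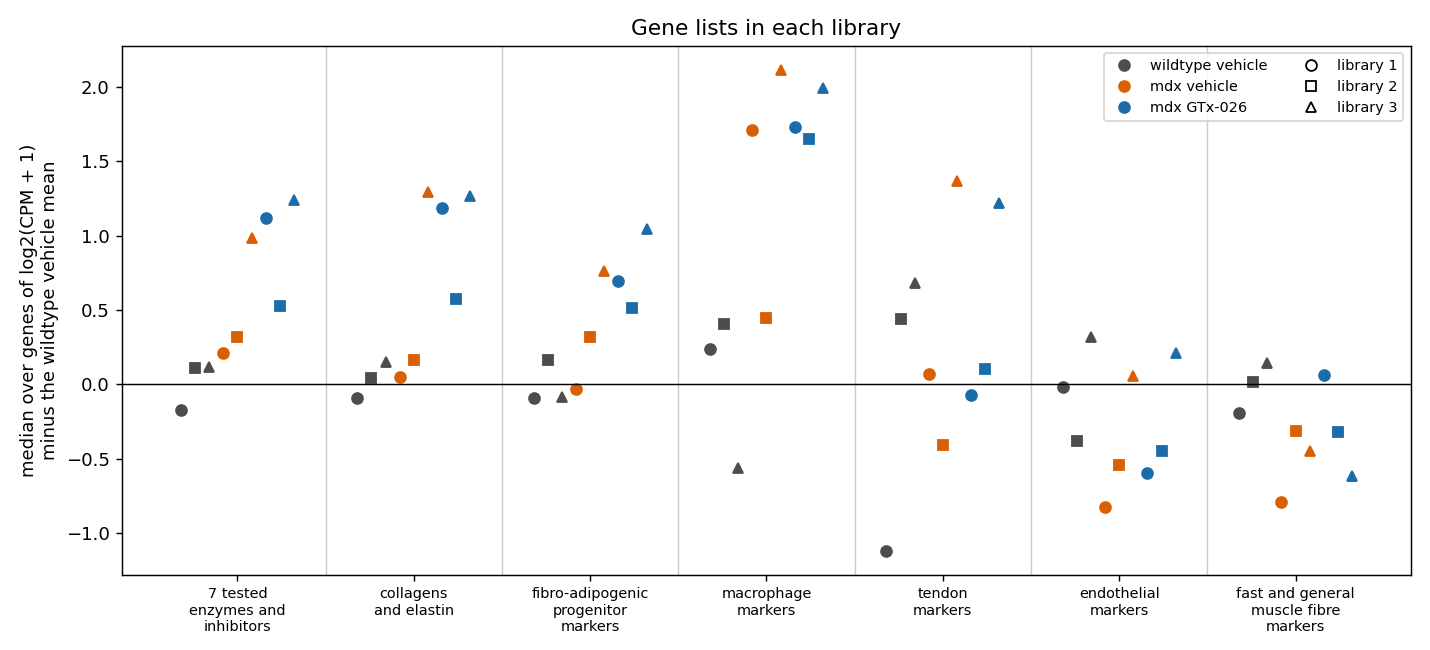
Median over each list's tested genes of the log2(CPM + 1) difference from the wildtype vehicle mean (y axis), per library (points, coloured by group, shaped by number). The enzymes and inhibitors, collagens, progenitor markers and macrophage markers are highest in mdx vehicle library 3 and GTx-026 libraries 1 and 3. For the macrophage markers, mdx vehicle library 1 (1.71) lies close to GTx-026 library 1 (1.73). The fibre markers are not highest in these libraries.

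Outside the 9 genes, 3 proteases of the wider system passed the threshold in mdx GTx-026 against wildtype vehicle, all of them higher. Of all tested genes, 1.48% passed there. The 3 are described because they passed. Plau, the urokinase that converts plasminogen to plasmin and so starts protease cascades on the matrix, was at 14.2, 17.4 and 15.02 CPM in wildtype, 18.4, 35.9 and 29.0 in mdx vehicle, and 66.1, 41.1 and 46.9 in mdx GTx-026. It rose 3.11-fold against wildtype (log2 1.64, SE 0.25, limma adjusted p = 0.0161). No 2 of the 3 groups shared any range. Of all genes, 7.96% were higher without overlap in mdx vehicle against wildtype. In mdx GTx-026, 3.66% were so against mdx vehicle and 11.5% against wildtype. Against mdx vehicle, Plau in GTx-026 lay at 0.89 (SE 0.25, limma adjusted p = 0.9996). Adamts5, a secreted protease that cuts aggrecan and versican, was at 9.63, 12.1 and 10.1 CPM in wildtype, 19.8, 36.9 and 21.9 in mdx vehicle, and 40.0, 35.9 and 33.7 in mdx GTx-026. It rose 3.24-fold against wildtype in GTx-026 (log2 1.70, SE 0.22, adjusted p = 0.00795) and lay at 1.18 in mdx vehicle (SE 0.22, adjusted p = 0.069). Mmp11, stromelysin-3, was at 2.77, 2.05 and 2.22 CPM in wildtype, 6.13, 4.19 and 7.04 in mdx vehicle, and 5.55, 5.67 and 6.14 in mdx GTx-026. It rose 2.04-fold against wildtype in GTx-026 (log2 1.03, SE 0.19, adjusted p = 0.0317) and lay at 1.00 in mdx vehicle (SE 0.19, adjusted p = 0.0733). The Plau call was lost without wildtype library 2 or 3 or GTx-026 library 1 or 3 (adjusted p up to 0.0814). The Mmp11 call was lost without any single wildtype or GTx-026 library and with the deposited scaling (adjusted p up to 0.14), and Adamts5 kept its call in all 17 settings. In mdx vehicle against wildtype, Adamts5 passed in 4 of the 17 settings (lowest adjusted p = 0.0196, with the deposited scaling) and Mmp11 in 2 (lowest adjusted p = 0.0238, with values of 0 included). For none of the 3 genes is a difference between the mdx groups shown. Over the alternative settings the lowest adjusted p by limma was 0.859 for Mmp11, 0.753 for Adamts5 and 0.538 for Plau.

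**Figure D5:**
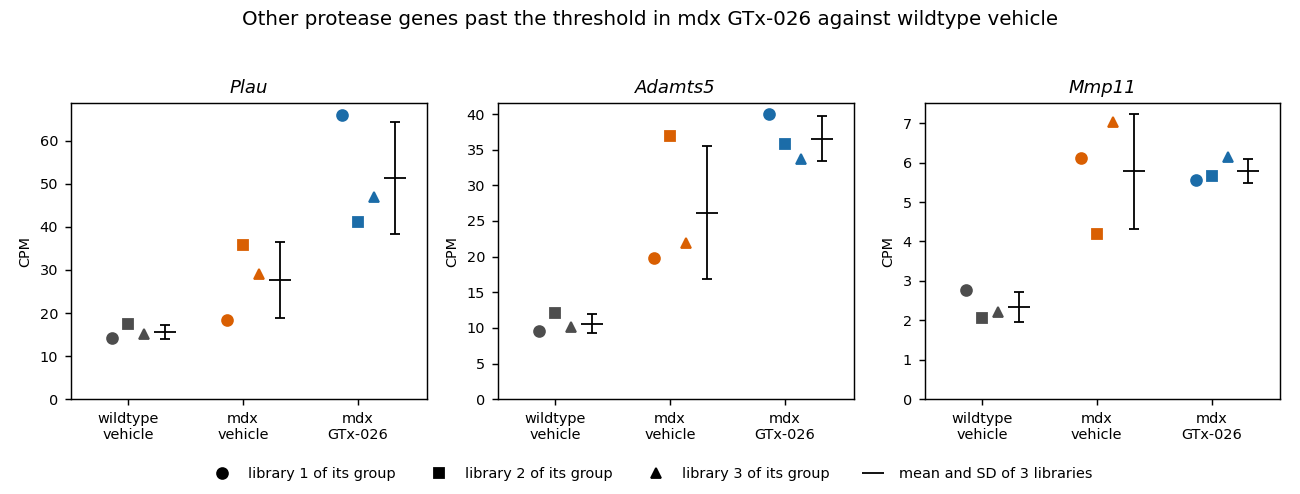
CPM (y axes, from 0) of Plau, Adamts5 and Mmp11 in each library by group; marker shape gives the library's number, bars give mean and SD of 3 libraries. For each gene all 6 mdx libraries lie above the wildtype libraries, and for Plau the GTx-026 libraries, at 41.1 CPM or more, also lie above mdx vehicle.

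Plau, Adamts5 and Mmp11 were the only calls of the other pathway lists, all in mdx GTx-026 against wildtype vehicle. Of all genes, 1.48% were called there. In mdx vehicle against wildtype vehicle 0.338% were, and in mdx GTx-026 against mdx vehicle 0.013%. Lists of 6 to 14 genes without a call lie close to these shares. Of 20 further metalloproteinase genes, 9 had a row and 8 were tested, with Mmp11 the only call; Mmp15, a membrane-type enzyme, was the most abundant at 22.7 to 44.2 CPM, and Mmp24 lay at 5.82 to 10.0 CPM. Loxl3, the further lysyl oxidase tested, was at 5.71 to 7.06 CPM in wildtype and 7.22 to 13.9 CPM in the mdx libraries, without a call. Wildtype and mdx libraries did not overlap, by a narrow gap. Of all genes, 7.96% were higher without overlap in mdx vehicle against wildtype and 11.5% in mdx GTx-026. Of the other inhibitors, Timp4 lay at 3.83 to 27.2 CPM and the membrane-anchored Reck at 1.96 to 4.47 CPM. Among 5 genes of plasminogen activation and furin, the inhibitor Serpine2 lay at 57.1 to 114 CPM and Furin, which activates pro-Mmp14, at 27.6 to 40.5 CPM. Of 18 ADAM and ADAMTS proteases tested, Adamts5 was the only call and Adam9 the most abundant, at 34.0 to 74.8 CPM. None of 14 collagen processing genes passed, among them the disulfide isomerase P4hb at 165 to 210 CPM and the transglutaminase Tgm2, which also crosslinks matrix, at 61.3 to 156 CPM. None of 6 lysyl oxidase partners passed; fibronectin, Fn1, ran from 20.3 to 258 CPM and the proteoglycan Fmod, which is also a tendon marker here, from 7.27 to 130 CPM. None of 8 receptors passed, with Bsg, the inducer of metalloproteinases, at 469 to 727 CPM and the integrin Itgb1 at 108 to 186 CPM. None of 10 TGF-beta and AP-1 regulators passed, with Jun at 53.6 to 92.5 CPM and the receptor Tgfbr2 at 29.6 to 56.8 CPM.

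Across the 9 libraries, the genes whose log2 levels were nearest to Lox among 10342 genes at 5 CPM or more were Smad1 (Pearson r = 0.982), Entpd1 (0.969) and Rab31 (0.965). Those nearest to Mmp2 were Cyth3 (0.986), Col6a1 (0.978) and Serpinf1 (0.973). The libraries share groups, and these are the highest of many correlations, so they are given as a description. Among the 7 tested genes, the 15 pairs without Timp3 correlated at 0.727 to 0.947 over the libraries, and at 0.381 to 0.951 once group means were removed. The 6 pairs with Timp3 lay between −0.188 and 0.360, and between 0.367 and 0.790 once group means were removed.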

How the data were processed

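The submitters' processing notes name the build GRCm38.p3, the aligners Bowtie2 2.2.4 and TopHat2 2.0.13, the tools HTSeq 0.6.1p1 and SAMtools 0.1.19, and also DESeq2 1.6.3, with no role given. The deposited signal is the authors' scaled read number for 46442 sequence records in 9 libraries. Beside it, per the file headers, stand the authors' mean signal of each group, and the authors' ratio of means and unadjusted p-value for each pair. The planned count test was replaced by limma, its stated fallback, because the values are scaled. Columns were matched to groups by name; none was left unused. Records above 0 in all 9 libraries were summed per symbol (15372 tested). The sums were rescaled by an unweighted trimmed mean of log ratios (30% on the ratio, 5% on the level, factors 0.874 to 1.30). They were expressed per M (mega) of the library's signal summed over records with a symbol (CPM). Tests used limma 3.58.1 in R 4.3.3 on log2(CPM + 1) with a trended prior, 3 groups in 1 model with 6 residual degrees of freedom, two-sided, Benjamini-Hochberg over all tested genes; the scale understates changes of low genes. The script was tested on simulated data. Named genes were the 9 members, calls of the pathway lists, and the 2 most abundant genes of each (4 for collagens). The members and lists were chosen with earlier results of these data known. Positions are from GENCODE M21 on GRCm38.p6.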

Additional observations from a re-analysis of the deposited data

How the results depend on the processing

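The 7 tested genes kept their direction in all comparisons under all 17 alternatives, except Loxl2 in mdx vehicle against wildtype vehicle, which ranged from −0.057 (without mdx vehicle library 3) to 0.40 with 1 library left out. Limma called no member in the main analysis. With values of 0 included it called 1 against wildtype in each mdx group, Timp1, whose values there are those listed at 0. In mdx GTx-026 against wildtype vehicle it called 1, Mmp14, with only the 2 groups compared, and 0 to 1 with a library left out. Members without overlap in mdx vehicle against wildtype vehicle numbered 1 (7.96% of all genes were higher without overlap), 3 with the deposited scaling (11.7%), 2 with values of 0 included (9.07%) and 1 to 4 with a library left out (7.96% to 17.5%; 4 without wildtype library 2, 11.3%). In mdx GTx-026 against mdx vehicle they numbered 0, and 0 to 6 with a library left out (6 without mdx vehicle library 3, where 10.2% of all genes were higher without overlap, and 3 without GTx-026 library 2, where 8.31% were). Members higher without overlap in mdx GTx-026 against wildtype vehicle numbered 6 (11.5% of all genes). They numbered 5 with median of ratios scaling (11%) and 5 with the record of highest mean (10.2%). Without wildtype library 1 (19.9%) or mdx vehicle library 1 (11.2%) they also numbered 5. With values of 0 included they numbered 7, of 8 tested (12.4%). Calls over all genes in mdx vehicle against wildtype vehicle were 52, 332 with values of 0 included, 5 with only the 2 groups compared, and 5 (without wildtype library 3) to 93 (without mdx vehicle library 2) with a library left out. In mdx GTx-026 against mdx vehicle they were 2, 4 with the deposited scaling, 96 with values of 0 included, 1 with only the 2 groups and 0 to 2 with a library left out. In mdx GTx-026 against wildtype vehicle they were 227, 509 with values of 0 included, 420 with only the 2 groups and 45 (without wildtype library 3) to 374 (without mdx vehicle library 1). Mmp11 in mdx GTx-026 against mdx vehicle, 0.02 in the main analysis, was −0.039 with the deposited scaling and ran from −0.16 to 0.16 with a library left out. The cause of these changes was not tested. The fold changes of the 20 other named genes are not printed; 22 of their 60 changed sign under at least 1 alternative, and the largest of those 22 was 0.41 in size. No paired analysis was possible because the columns carry no number that the labels share between groups. With 3 libraries a group, the unadjusted 95% interval of Lox between the mdx groups ran from −0.40 to 1.26. That interval gives the uncertainty of the estimate and is not a limit of detection. In mdx GTx-026 against wildtype vehicle, Lox at 1.48 with the same SE of 0.37 was not called (limma adjusted p = 0.0989).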

Other observations

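Besides Timp1, 2 genes of the same families were listed at 0 in all 3 wildtype libraries and above 0 in all 6 mdx libraries. Loxl4, a lysyl oxidase, was at 0.735, 1.27 and 2.205 CPM in mdx vehicle and at 1.54, 1.20 and 3.37 CPM in mdx GTx-026. Mmp23 was at 0.674, 0.501 and 0.422 CPM in mdx vehicle and at 0.650, 0.760 and 0.796 CPM in mdx GTx-026, close to the smallest listed values. Over the whole table, 355 records were at 0 in all wildtype libraries, 101 in all mdx vehicle libraries and 133 in all mdx GTx-026 libraries.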
